A study of Mus musculus with 8 samples.

Results

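The Hox cluster genes of the mouse were examined in RNA sequencing libraries of induced pluripotent stem cells (iPSCs). Members were all genes named Hox with a cluster letter, A to D, and a paralogue number, and 39 of the 23284 genes in the expression table met this rule. HoxA held 11, HoxB 10, HoxC 9 and HoxD 9, and by paralogue number 12 were anterior (1 to 4), 11 central (5 to 8) and 16 posterior (9 to 13). The 8 libraries came from iPSCs reprogrammed from embryonic fibroblasts (MEFs) and grown over feeder cells. In the miR-203 tKI line, labelled ColA1_miR203 (KI/KI) and Rosa26rtTA (KI/KI), clones 1 and 2 were given doxycycline (dox) for 5 days to switch on miR-203 for a time, and were collected 2 weeks after withdrawal. Vehicle libraries of clones numbered 1 and 2 came from the same line, so there were 2 dox and 2 vehicle libraries. The knock-in is carried at ColA1 and driven through the rtTA activator at Rosa26, which vehicle cells carry too. Wild-type iPSCs, labelled ColA1_miR203 (+/+) and Rosa26rtTA (+/+), received siRNA against Dnmt3a, against Dnmt3b, against both, or a control siRNA (siControl), and were collected 1 week later, with 1 library each. Wild type is thus represented by 4 libraries of differing siRNA, and no untransfected wild-type library was analysed here.

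Hox genes encode homeodomain transcription factors that give cells their position along the body axis. Within a cluster, genes of low paralogue number act toward the head and those of high number toward the tail and the limb ends, and the order of the genes on the chromosome follows the order of use. In pluripotent cells the clusters are held silent by Polycomb complexes, retinoic acid opens them from the anterior end, and fibroblasts keep a Hox pattern that reflects the place in the body they came from. Pbx and Meis proteins bind DNA beside Hox proteins as cofactors. Dnmt3a and Dnmt3b encode the enzymes that place new methyl groups on CpG sites.

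All members are annotated as protein-coding on GRCm38 (GENCODE). HoxA lies at chr6:52155590-52260880 on the minus strand, and the other clusters on the plus strand, HoxB at chr11:96194316-96368256, HoxC at chr15:102921103-103036852 and HoxD at chr2:74668310-74765142. They span 105.3, 173.9, 115.8 and 96.8 kb in that order. The annotated spans of 11 members overlap those of another member on the same strand, in 8 pairs. Hoxa3 overlaps Hoxa4, Hoxa5 and Hoxa6, Hoxc5 overlaps Hoxc6, Hoxc8, Hoxc9 and Hoxc10, and Hoxd3 overlaps Hoxd4, so the split of fragments within these pairs is uncertain.

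The microRNA, a site for it and 4 promoters are shown because the study switched on miR-203 and targeted the enzymes that methylate CpG sites. The mature miR-203-3p (RefSeq, GRCm38.p6, chr12:112130927-112130948, plus strand) is given with its seed, bases 2 to 8, in capitals, and then the site in the Hoxb9 3′ UTR (GENCODE, GRCm38, chr11:96276048-96276077, plus strand) with the match in capitals.
miR-203-3p: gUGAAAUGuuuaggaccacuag
Hoxb9 site: tgggtatctttcCATTTCAccagtttcctg
The Hoxb9 transcript was the only one among the 39 members with the 7 letters CATTTCA, which pair with the seed, in an annotated 3′ UTR, searched on the transcript strand. That is 2.564% of the members, beside 17.4% of 18220 genes of the table with a 3′ UTR. The longest 3′ UTR of a gene had a median of 966 bases over the members and 1010 bases over these genes.

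The promoter windows run from 250 bases before to 50 bases after a start (RefSeq, GRCm38.p6), and 24 windows of 22 members were matched by symbol. They held a median of 14.5 CpG sites (4 to 45), beside a median of 7 over 32841 windows of all genes, whose quartiles were 3 and 20. The letters TGATNNAT, a form of the Pbx and Hox joint site, were found on either strand in 4 of the 24 windows (16.67%), those of Hoxa2, Hoxb1, Hoxb8 and 1 of 2 windows of Hoxd11. Of all windows, 8.849% held them. Hoxb1 is shown (chr11:96365508-96365807, plus strand) with this match in capitals, beginning 162 bases before the start. Hoxa5 (chr6:52204538-52204837, minus strand), Hoxd13 (chr2:74667975-74668274, plus strand) and Hoxd8 (chr2:74704365-74704664, plus strand) are shown with CpG sites in capitals.
Hoxb1: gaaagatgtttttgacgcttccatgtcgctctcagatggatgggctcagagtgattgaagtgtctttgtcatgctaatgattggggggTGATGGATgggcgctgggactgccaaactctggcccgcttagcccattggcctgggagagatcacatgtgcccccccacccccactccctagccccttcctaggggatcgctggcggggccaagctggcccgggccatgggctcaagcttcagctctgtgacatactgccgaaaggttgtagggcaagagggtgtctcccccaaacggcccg
Hoxa5: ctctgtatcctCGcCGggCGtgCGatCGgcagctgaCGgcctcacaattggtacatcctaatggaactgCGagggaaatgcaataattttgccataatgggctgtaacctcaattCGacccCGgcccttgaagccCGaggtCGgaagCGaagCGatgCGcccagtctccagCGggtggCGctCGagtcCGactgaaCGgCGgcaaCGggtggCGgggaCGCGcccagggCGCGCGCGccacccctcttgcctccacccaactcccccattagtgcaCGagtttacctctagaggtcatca
Hoxd13: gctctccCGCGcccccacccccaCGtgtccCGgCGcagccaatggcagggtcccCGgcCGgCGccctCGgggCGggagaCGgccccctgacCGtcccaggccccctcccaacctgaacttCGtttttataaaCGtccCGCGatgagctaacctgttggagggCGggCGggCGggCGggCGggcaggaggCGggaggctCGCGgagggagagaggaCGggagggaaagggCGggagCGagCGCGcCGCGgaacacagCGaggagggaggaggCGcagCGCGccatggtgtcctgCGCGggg
Hoxd8: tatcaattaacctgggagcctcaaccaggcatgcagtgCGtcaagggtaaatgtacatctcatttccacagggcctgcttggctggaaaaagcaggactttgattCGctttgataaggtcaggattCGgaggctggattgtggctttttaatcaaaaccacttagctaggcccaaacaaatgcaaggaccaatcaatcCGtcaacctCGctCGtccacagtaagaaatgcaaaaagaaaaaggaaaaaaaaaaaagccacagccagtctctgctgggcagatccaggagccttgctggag
The windows of Hoxb1 and Hoxa5, which were high in wild-type libraries and low in the knock-in line, held 10 and 29 CpG sites. Those of Hoxd13 and Hoxd8, which were higher in the knock-in line, held 37 and 6.

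Levels are in FPKM, fragments scaled to transcript length and library size, so genes can be compared with each other. The libraries summed to between 486917 and 586657 FPKM and had 11620 to 12076 genes at 1 FPKM or more. The sources used here give no depth in fragments. For 9 low members the values stepped by what 1 fragment is worth, within a tolerance of 0.05 fragments, which puts Hoxc11 at 0 to 3 fragments and Hoxd1 at 1 to 6 fragments over the 8 libraries. None of the 9 rests on more than 25 fragments in any library. Pou5f1, the core factor of the state, was at 922 and 855 FPKM in dox libraries, 1048 and 947 in vehicle libraries and 888 to 1223 in wild-type libraries.

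The targeted genes were checked first. Dnmt3a was at 59.8 FPKM in the siDnmt3a library, 77.6 in the siDnmt3b library and 69.5 in the double siRNA library, against 75.1 in siControl, and at 7.55 to 9.55 in the 4 libraries of the knock-in line. Dnmt3b was at 135, 128 and 135 in those siRNA libraries, against 146 in siControl, and at 21.5 and 20.8 in dox libraries and 68.8 and 55.1 in vehicle libraries. Each siRNA target was thus at most 20.3% below siControl 1 week after transfection. The Mir203 gene, whose short hairpin polyA sequencing does not measure well, was listed at 0 and 15.3 in dox clones 1 and 2, at 0 and 17.7 in vehicle clones 1 and 2 and at 0 in wild-type libraries, so this value does not check the induction.

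The Hox genes of the 2 lines formed different patterns. Summed over all 39 members, the level was 35.8 and 33.99 FPKM in dox libraries, 15.7 and 16.6 in vehicle libraries, and 120, 114, 112 and 118 in the siDnmt3a, siDnmt3b, double siRNA and siControl libraries. HoxA and HoxB together gave 16.2 ± 0.295 FPKM in dox libraries and 6.93 ± 0.836 in vehicle libraries (SD, n = 2 each), and 108 ± 3.27 over the 4 wild-type libraries (SD, n = 4). HoxC and HoxD together gave 18.7 ± 0.986, 9.21 ± 0.148 and 7.54 ± 0.565 in the same order. Wild-type iPSCs thus held nearly all of their Hox RNA in HoxA and HoxB, while dox and vehicle libraries held more in HoxC and HoxD. A mean of 1 FPKM or more was reached by 13 members in dox libraries, 6 in vehicle libraries and 20 in wild-type libraries.

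**Figure D1:**
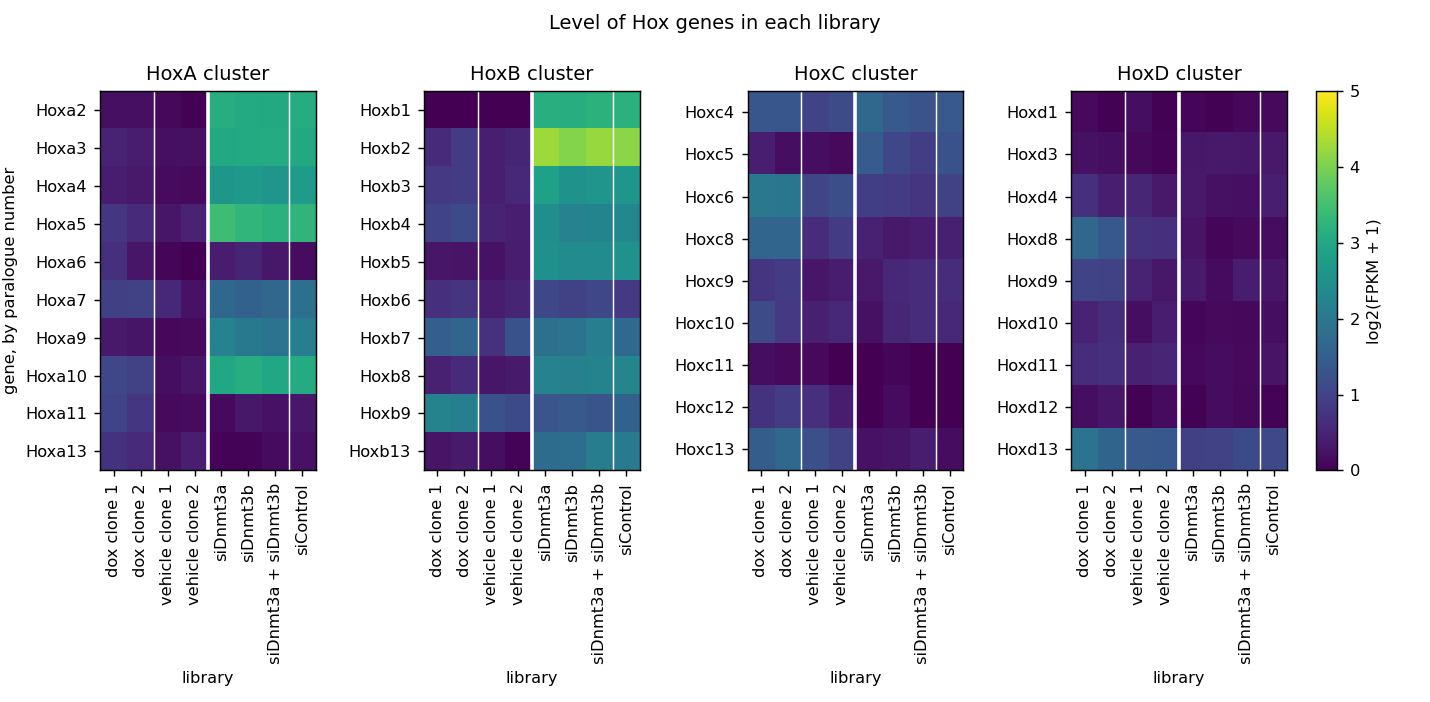
Level of 38 of the Hox genes (rows, by cluster and paralogue number) in each of the 8 libraries (columns), as log2(FPKM + 1) by colour. Most anterior and central HoxA and HoxB genes are bright in the 4 wild-type libraries and dark in the knock-in line, while Hoxc6, Hoxc8, Hoxd8 and Hoxb9 are brightest in the dox libraries.

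The first comparison asked what stayed different 2 weeks after miR-203 had been switched on. Most Hox genes had higher values in dox than in vehicle libraries, in all 4 clusters. Both dox libraries lay above both vehicle libraries at 33 of the 39 members, below them at 0, and overlapped them at 6. Over all genes, 30.8% had both dox libraries above and 31.0% both below. The overlapping members were Hoxb1, Hoxb5, Hoxc5, Hoxc11, Hoxd1 and Hoxd4. By limma on log2(FPKM + 1), 8 members were tested, those with a mean of 1 FPKM or more over these 4 libraries. At an adjusted p of 0.05, 5 rose, 0 fell and 3 did not pass (at an unadjusted p of 0.05, 0 fell too). Among the 5, Hoxc8 and Hoxd8 reached the minimum only through their dox libraries. Their vehicle means were 0.688 and 0.631 FPKM. Of all 11927 genes tested, 17.1% were called higher and 14.8% lower. With clone number as a block, 7 of the 8 were called higher. The share of all genes called in that fit was not counted, so 17.1% is not its background. The labels do not say that the clones are separate derivations, so p-values measure only the spread between these libraries.

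Trunk genes led the members that rose. Hoxb9, which patterns the thoracic skeleton, was at 3.72 and 3.43 FPKM in dox libraries and 1.41 and 1.18 in vehicle libraries. It lies at chr11:96271457-96276595 and is the member that carries the miR-203 seed match. Dox was higher by 1.00 (log2; SE 0.115, limma adjusted p = 0.00216), 2.77-fold in FPKM, and the groups did not overlap.
Hoxc6, a gene of the neck and thorax border and of the forelimb level, was at 3.00 and 2.92 FPKM in dox libraries and 1.06 and 1.29 in vehicle libraries. It rose by 0.87 (SE 0.116, limma adjusted p = 0.00367), with dox clones closer to each other than vehicle clones.
Hoxc8, a thoracic identity gene, was at 2.09 and 2.08 FPKM in dox libraries, against 0.546 and 0.831 in vehicle libraries, a rise of 0.88 (SE 0.132, limma adjusted p = 0.0055).
Hoxd8, its paralogue in HoxD, was at 2.15 and 1.60 in dox libraries and 0.666 and 0.597 in vehicle libraries. It rose by 0.81 (SE 0.139, limma adjusted p = 0.00866), and clone 1 was the higher of the dox libraries.

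The posterior genes at the far end of HoxC and HoxD had smaller differences. Hoxc13, which acts in hair and nail, was at 1.79 and 2.23 FPKM in dox libraries and 1.33 and 0.956 in vehicle libraries, a rise of 0.49 (SE 0.144, limma adjusted p = 0.0426). This call was lost without dox clone 2 (adjusted p = 0.174), without vehicle clone 1 (0.0574) and without vehicle clone 2 (0.156). Hoxd13, a gene of the digits and genital tubercle, was at 2.76 and 2.07 in dox libraries and 1.63 and 1.59 in vehicle libraries. Its difference of 0.38 (SE 0.134) did not pass at limma adjusted p = 0.0718, and passed with clone as a block (0.0175). Hoxb7, a trunk gene, was at 1.83 and 2.09 in dox libraries and 0.645 and 1.41 in vehicle libraries, where the clones differed most. Its difference of 0.57 (SE 0.193) had a limma adjusted p of 0.0644, and 0.00434 with the block. Hoxc4, a gene of the neck level, was at 1.54 and 1.53 in dox libraries and 1.04 and 1.20 in vehicle libraries, and its difference of 0.26 (SE 0.117) passed neither fit (limma adjusted p = 0.132, and 0.079 with the block).

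**Figure D2:**
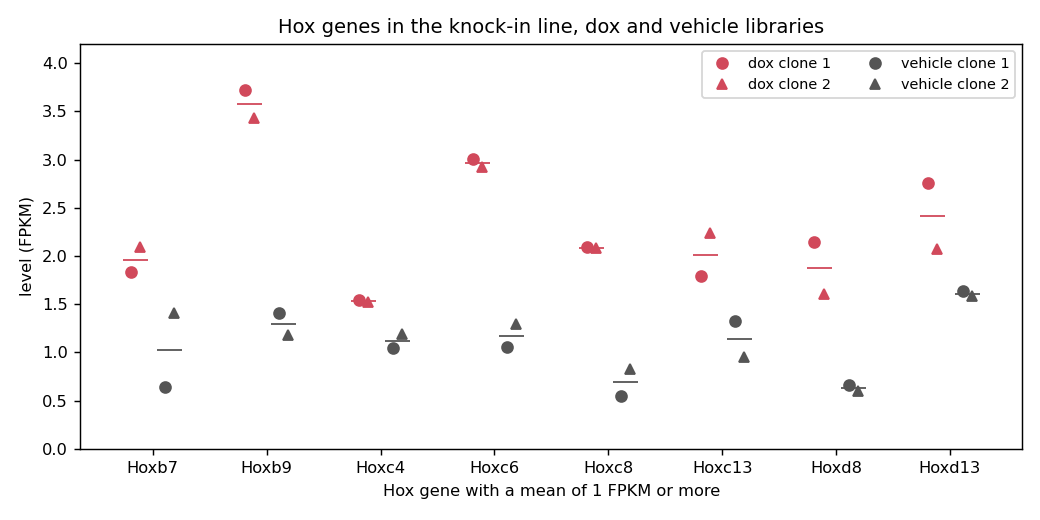
FPKM of the 8 tested Hox genes in dox (red) and vehicle (grey) libraries of the knock-in line, circles for clone 1, triangles for clone 2 and bars for group means. The groups do not overlap at any of the 8, with the widest gap at Hoxb9, whose dox libraries lie at 3.72 and 3.43 FPKM.

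The 31 members below that level were not tested in this fit, and most of them also had higher values in dox libraries. Among them Hoxa10 and Hoxa11, posterior HoxA genes of the uterus and limb, stood furthest apart on the log2(FPKM + 1) scale. Hoxa10 was at 1.10 and 0.979 FPKM in dox libraries, against 0.140 and 0.227 in vehicle libraries, and Hoxa11 at 0.998 and 0.740 against 0.0960 and 0.0997. Hoxa11as, the antisense RNA of Hoxa11, was at 0.867 and 1.11 in dox libraries and 0.0937 and 0.195 in vehicle libraries. The libraries are strand-specific per the labels, but whether strand was used in counting is not given in the sources used, so the reads of this pair cannot be told apart. Hoxc10 reached 1.24 and Hoxd9 1.05 FPKM, both highest in dox clone 1, and Hoxb6 reached 1.13, in the siDnmt3a library. At a minimum mean of 0.1 FPKM, 36 members were tested, 13 rose and 0 fell, where 14.6% of all genes were called higher and 11.3% lower. The 13 were Hoxa7, Hoxa10, Hoxa11, Hoxb3, Hoxb4, Hoxc9, Hoxc10 and Hoxd9 and the 5 above. Of these, Hoxa11 reached this minimum only through its dox libraries, since its vehicle mean was 0.09785 FPKM. Some members that did not pass, such as Hoxa6 and Hoxa2, also reached it only in this way. Anterior members moved least in absolute terms. The median difference of mean log2(FPKM + 1), dox minus vehicle, was 0.18 over the anterior, 0.46 over the central and 0.36 over the posterior members, where low levels compress the difference. It was 0.31 in HoxA, 0.27 in HoxB, 0.47 in HoxC and 0.17 in HoxD. Hoxb1 was listed at 0 in all 4 libraries of the knock-in line.

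**Figure D3:**
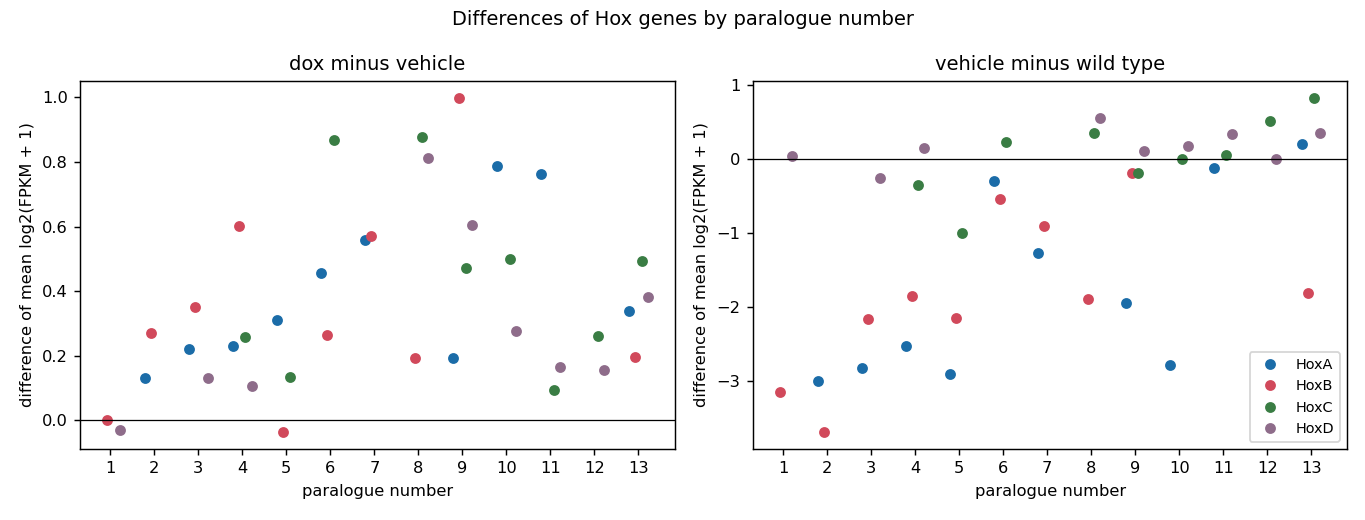
Difference of mean log2(FPKM + 1) for 38 of the members (points, coloured by cluster) against paralogue number, dox minus vehicle on the left and vehicle minus the 4 wild-type libraries on the right. On the left nearly all points lie above 0, and on the right the low-numbered HoxA and HoxB genes lie below -1 while most HoxC and HoxD genes lie near or above 0.

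Markers of fibroblasts moved with the dox comparison. Of 34 fibroblast markers tested, 32 rose, 1 fell and 1 did not pass, with a median of 1.57, against -0.01 over all genes. Their summed level was 4509 to 4749 FPKM in dox libraries, 1416 to 1660 in vehicle libraries and 570 to 738 in wild-type libraries, and none of the 35 was at 0 in every library, while Fap was at 0 in the siDnmt3a library. Col1a1, the main collagen of connective tissue, was at 494 and 517 FPKM in dox libraries and 98.3 and 120 in vehicle libraries. Of 26 positional mesenchymal genes, 7 were tested, and of these 6 rose, 0 fell and 1 did not pass (median 0.84). Of all genes tested, 17.1% were called higher and 14.8% lower. Prrx1, a limb and craniofacial mesenchyme factor that is also on the fibroblast list, rose by 1.34 (SE 0.127, limma adjusted p = 0.00109). The same ordering, dox above vehicle above wild type, was seen for the HoxC and HoxD sum but not for the HoxA and HoxB sum. Taken alone, HoxD followed it, with 3.90 and 3.63 FPKM in vehicle libraries and 1.94 to 2.58 in wild-type libraries. HoxC alone did not, since its vehicle sums of 5.41 and 5.47 lay within the wild-type range of 4.71 to 5.82. The part of fibroblasts, whether feeder cells or MEF-derived, in the Hox difference was not tested, and in bulk RNA fewer cells of a type and less RNA per cell cannot be told apart.

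**Figure D4:**
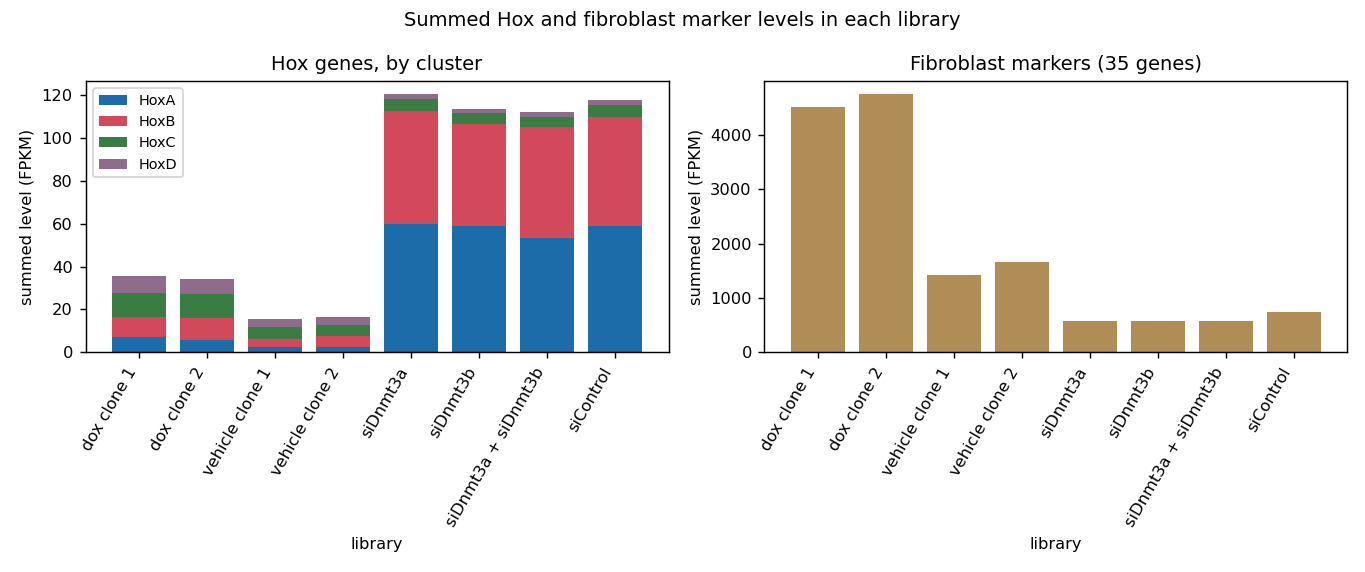
Summed FPKM of the Hox genes by cluster (left, stacked) and of 35 fibroblast markers (right) in each library. Dox libraries have the highest fibroblast sum, 4509 and 4749 FPKM, and wild-type libraries the highest Hox sum, 112 to 120 FPKM.

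The second comparison set the vehicle libraries of the knock-in line beside wild-type iPSCs. Most anterior and central HoxA and HoxB genes were low in vehicle libraries and expressed in wild-type iPSCs. Both vehicle libraries lay below all 4 wild-type libraries at 22 members and above them at 8, and overlapped at 9, while 32.1% of all genes lay below and 31.7% above. The 22 held 9 HoxA, 10 HoxB, 2 HoxC and 1 HoxD genes, and the 8 held 4 HoxC and 4 HoxD genes. Against siControl alone, which allows no test, 20 members had a mean of 1 FPKM or more over the 2 groups. Of these, 15 were at least 2-fold lower in vehicle libraries and 0 were 2-fold higher, where 5.48% of all genes were lower and 7.86% higher. A limma fit against the 4 wild-type libraries together, added after the data were seen, tested 20 members at the same minimum. It called 17 lower and 1 higher, where 32.1% of all genes were called lower and 34.5% higher. In both counts most members reached the minimum only through their wild-type level. Of all 39 members, 6 had a vehicle mean of 1 FPKM or more. Members higher in vehicle libraries but low in both lines, such as Hoxd8 and Hoxc12, fell below the minimum, so neither count compares the 2 directions evenly. The 4 wild-type libraries differ in siRNA, and the line, its clones and transfection cannot be told apart in this comparison. The limma fit takes these 4 libraries as replicates of wild type, so its p-values measure only the spread between the libraries used.

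Genes of the hindbrain end carried most of the wild-type Hox RNA. Hoxb2, which acts in hindbrain segments, was at 0.344 and 0.439 FPKM in vehicle libraries, against 18.3, 15.7, 17.6 and 16.4 in the siDnmt3a, siDnmt3b, double siRNA and siControl libraries. It was 43.5-fold lower in vehicle libraries, by 3.69 (log2; SE 0.0838, limma adjusted p = 1.371e-08). Its SD between the wild-type libraries was 1.18 FPKM (n = 4).
Hoxb1, which sets the identity of a hindbrain segment and acts on its own promoter, was listed at 0 in both vehicle libraries and in both dox libraries, and at 7.76, 7.65, 8.22 and 8.11 FPKM in wild-type libraries. Its promoter, shown above, holds a match to the letters of the joint Pbx and Hox site.
Hoxa2, a hindbrain and branchial arch gene, was at 0.0769 and 0.0266 in vehicle libraries, against 7.69, 7.36, 7.25 and 7.56. Hoxa3, a pharyngeal arch gene, was at 0.153 and 0.176 in vehicle libraries, against 7.17, 7.27, 7.43 and 7.26. Among these 4 genes the SD between wild-type libraries was lowest for Hoxa3, at 0.110 FPKM (n = 4), and no vehicle library came near a wild-type one.

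The next genes along the axis were also lower in the knock-in line. Hoxa4 was at 0.113 and 0.0878 FPKM in vehicle libraries, against 5.23, 5.49, 5.07 and 5.69 in the wild-type libraries, 53.5-fold lower. Hoxa5, a lung and neck gene, was at 0.230 and 0.405, against 9.89, 8.85, 8.19 and 8.69, 28.1-fold lower. The HoxB neighbours showed the same split between lines. Hoxb3 was at 0.331 and 0.495 in vehicle libraries, against 6.29, 4.82, 5.11 and 5.20 in wild-type libraries. Hoxb4, known in blood stem cells, was at 0.420 and 0.331, against 4.47, 3.65, 3.79 and 4.03. Hoxb5 was at 0.182 and 0.307, against 4.68, 4.31, 4.30 and 4.78. All 5 were called lower, with differences between -1.86 for Hoxb4 and -2.91 for Hoxa5 and no overlap between lines.

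Genes of the trunk and posterior end were split. Hoxa10 was at 0.140 and 0.227 FPKM in vehicle libraries, against 6.86, 7.61, 6.92 and 7.42 in wild-type libraries, 39.3-fold lower. Hoxa9, known in blood progenitors, was at 0.0759 and 0.0984, against 3.63, 3.07, 2.72 and 3.43. Hoxb8 was at 0.228 and 0.288, against 3.63, 3.55, 3.69 and 3.82. These levels put a posterior HoxA gene among the highest members of wild-type iPSCs. Hoxb13, the most posterior HoxB gene, was at 0.131 and 0.0341 in vehicle libraries, against 2.40, 2.48, 3.28 and 3.09 in wild-type libraries. Hoxa7 was at 0.486 and 0.183, against 2.21, 1.95, 2.14 and 2.61. Hoxb7 was at 0.645 and 1.41, against 2.58, 2.73, 3.39 and 2.28, and its difference of -0.90 (SE 0.164, limma adjusted p = 0.00125) was smaller in size than that of Hoxb8 (-1.89). Hoxa11 and Hoxa13, next to Hoxa10, stayed under 0.35 FPKM in all vehicle and wild-type libraries.

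In HoxC and HoxD, 8 of the 18 members were higher in vehicle libraries, 3 were lower and 7 overlapped. Over all genes, both vehicle libraries lay above all 4 wild-type libraries at 31.7% and below them at 32.1%. Hoxd13 was at 1.63 and 1.59 FPKM in vehicle libraries, against 0.918, 0.983, 1.17 and 1.15 in wild-type libraries, and was the single member called higher (0.35, SE 0.0909, limma adjusted p = 0.00894). Hoxc13 was at 1.33 and 0.956 in vehicle libraries, against 0.187, 0.211, 0.313 and 0.119, a 5.50-fold higher level in a gene under the minimum of that fit. Hoxd8 was at 0.666 and 0.597, against 0.204, 0.0601, 0.0944 and 0.116, 5.32-fold higher.
Hoxc8 was at 0.546 and 0.831 in vehicle libraries, against 0.367, 0.271, 0.321 and 0.349, and Hoxc12, Hoxd10 and Hoxd11 also lay above all wild-type libraries. Hoxc6 was at 1.06 and 1.29, against 0.911, 0.861, 0.675 and 0.988, and did not pass (0.23, SE 0.102, limma adjusted p = 0.0776). Hoxb9 was at 1.41 and 1.18, against 1.49, 1.62, 1.44 and 1.95, and did not pass either (-0.19, SE 0.104, limma adjusted p = 0.128). The HoxC genes Hoxc4 and Hoxc5 were lower in vehicle libraries. Hoxc4 was at 1.04 and 1.20 in vehicle libraries, against 2.22, 1.62, 1.42 and 1.63, and fell by 0.35 (SE 0.120, limma adjusted p = 0.0281), a call lost without vehicle clone 1 (0.147) or clone 2 (0.0665). Hoxc5 was at 0.142 and 0.0983, against 1.70, 1.11, 0.870 and 1.38, below the minimum of the fit. At a minimum of 0.1 FPKM, 6 of 36 members tested were called higher and 21 lower, where 31.9% of all genes were called higher and 31.2% lower. Hoxb1, Hoxa2, Hoxa9 and Hoxb13 reached this minimum only through their wild-type level, with vehicle means of 0 to 0.0872 FPKM. Hoxc12, at a wild-type mean of 0.0254, reached it only through its vehicle libraries. This count therefore does not compare the directions evenly.

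Cofactors and inducers of Hox genes were read from lists, whose counts stand beside the shares of all genes called, 17.1% higher and 14.8% lower with dox, and 34.5% higher and 32.1% lower between lines. All 9 Hox cofactors were tested between vehicle and wild-type libraries, and 8 fell and 1 rose (median -1.41, against 0.01 over all genes). Pbx3 was at 2.14 and 2.32 FPKM in vehicle libraries, against 15.7, 14.99, 12.8 and 14.9 in wild-type libraries, and Meis1 at 0.690 and 0.650, against 7.57, 7.23, 5.64 and 7.85. Of 8 cofactors tested with dox, 2 rose, 0 fell and 6 did not pass, and Meis3 rose by 0.41 (SE 0.102, limma adjusted p = 0.0276).
Of 20 upstream axial factors tested between lines, 14 fell, 2 rose and 4 did not pass (median -1.11). They included Crabp1, which binds retinoic acid in the cell, at 7.39 and 8.21 in vehicle libraries against 160, 133, 144 and 136, and Gbx2, a hindbrain border gene, at 6.67 and 7.24 against 91.2, 83.4, 96.5 and 84.6. With dox, 6 of 17 rose, 4 fell and 7 did not pass. Crabp2 rose by 1.50 (SE 0.153, limma adjusted p = 0.00137) and Rarg, a retinoic acid receptor, fell by 1.05 (SE 0.143, limma adjusted p = 0.00389).

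Neural and mesoderm markers also differed between the lines. Over all genes tested, 34.5% were called higher and 32.1% lower between lines, and 17.1% higher and 14.8% lower with dox. Of 5 neural tube markers tested, 4 fell and 1 rose in vehicle libraries, with Sox1, an early neural gene, at a mean of 1.76 FPKM against 33.4 in wild-type libraries. Of 4 paraxial mesoderm markers, 3 fell, 0 rose and 1 did not pass. Tcf15 was at a mean of 14.8 FPKM in vehicle libraries and 109 in wild-type libraries. Fibroblast markers went the other way, with 28 of 32 higher, 1 lower and 3 not passed. Of 5 positional mesenchymal genes tested between lines, 4 rose and 1 fell. The part of any of these cell types in the Hox pattern was not tested. Of 14 pluripotency genes tested, 8 were higher, 3 lower and 3 not passed in vehicle libraries. Nanog was at 256 and 209 FPKM in vehicle libraries, against 69.3 to 77.6 in wild-type libraries. Utf1, among the 3 lower, was at 127 and 128 against 234 to 296. With dox, 4 of the 14 rose, 3 fell and 7 did not pass. None of the 3 neural tube markers tested passed with dox, and of 3 paraxial mesoderm markers 1 rose, 1 fell and 1 did not pass.

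Regulators of Hox chromatin were read in the same way. Of 32 Polycomb genes tested with dox, 3 rose, 10 fell and 19 did not pass (median -0.20). Over all genes tested with dox, 17.1% were called higher and 14.8% lower. Rnf2, a ligase of the first Polycomb complex, was at a mean of 26.2 FPKM in dox libraries and 37.6 in vehicle libraries. It fell by 0.51 (SE 0.0754, limma adjusted p = 0.0053). Ring1, the other ligase on the list, went the other way. Its mean was 8.025 FPKM in dox libraries and 6.231 in vehicle libraries, and it rose by 0.32 (limma adjusted p = 0.0399). Eed, a core subunit of the second complex, was at 80.4 and 64.7 in dox libraries and 108 and 93.0 in vehicle libraries. It fell by 0.47 (SE 0.124, limma adjusted p = 0.0319). Ezh2 and Suz12, also core subunits of the second complex, did not pass (limma adjusted p = 0.052 and 0.058). Of 31 tested between lines, 14 rose, 11 fell and 6 did not pass, where 34.5% of all genes were higher and 32.1% lower. Of 18 MLL and trithorax genes, which keep Hox genes active, 1 rose, 1 fell and 16 did not pass with dox, and between lines 5 rose, 8 fell and 5 did not pass.
Of 15 genes next to the clusters tested with dox, 1 rose, 6 fell and 8 did not pass (median -0.15), where 17.1% of all genes were higher and 14.8% lower. Skap2, beside HoxA, rose by 0.41 (SE 0.0842, limma adjusted p = 0.0147), and between lines it fell by 1.09 (SE 0.0652, limma adjusted p = 1.425e-06), while 6 of 15 neighbours rose, 3 fell and 6 did not pass. Of 9 RNA genes inside the clusters that were matched, 6, among them Hotair, were at 0 in every library and none was tested.

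The third comparison asked what siRNA against the de novo methyltransferases did in wild-type iPSCs, with 1 library a group and no test. Each siRNA target was at most 20.3% below siControl in RNA, as given above, so a stronger loss was not examined. No Hox gene of the 20 with a wild-type mean of 1 FPKM or more differed from siControl by 2-fold in any library. Over all genes, 0.153% did so in the siDnmt3a library, 0.111% in the siDnmt3b library and 0.239% in the double siRNA library. The median difference of the 20 members was 0.00 in the siDnmt3a library, -0.08 in the siDnmt3b library and -0.07 in the double siRNA library. Over all genes the medians were -0.0043, -0.0028 and 0.0086 in the same order. Of the 20, 10, 5 and 6 were above siControl. The comparisons share the siControl library, so its own deviations enter all 3.

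The members furthest from siControl were not the same in each library. Hoxc4 was highest in the siDnmt3a library, by 0.29, and Hoxb13 lowest, by -0.27. In the siDnmt3b library Hoxb7 differed by 0.19 and Hoxa7 by -0.29. Hoxb7 and Hoxc5 were at the ends in the double siRNA library, with 0.42 and -0.35. Hoxb1 stayed between 7.65 and 8.22 FPKM and Hoxa3 between 7.17 and 7.43 over the 4 libraries. Fibroblast markers were lower than in siControl in the 3 siRNA libraries, by medians of 0.57, 0.53 and 0.70 on the log2 scale, in 31 of 32, 31 of 31 and 30 of 32 markers. Over those libraries the HoxA and HoxB sum was 112, 106 and 105 FPKM, beside 109 in siControl. The HoxC and HoxD sum was 7.945, 7.088 and 7.011 FPKM, beside 8.095 in siControl. A relation of either sum to the fibroblast markers was not tested.

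**Figure D5:**
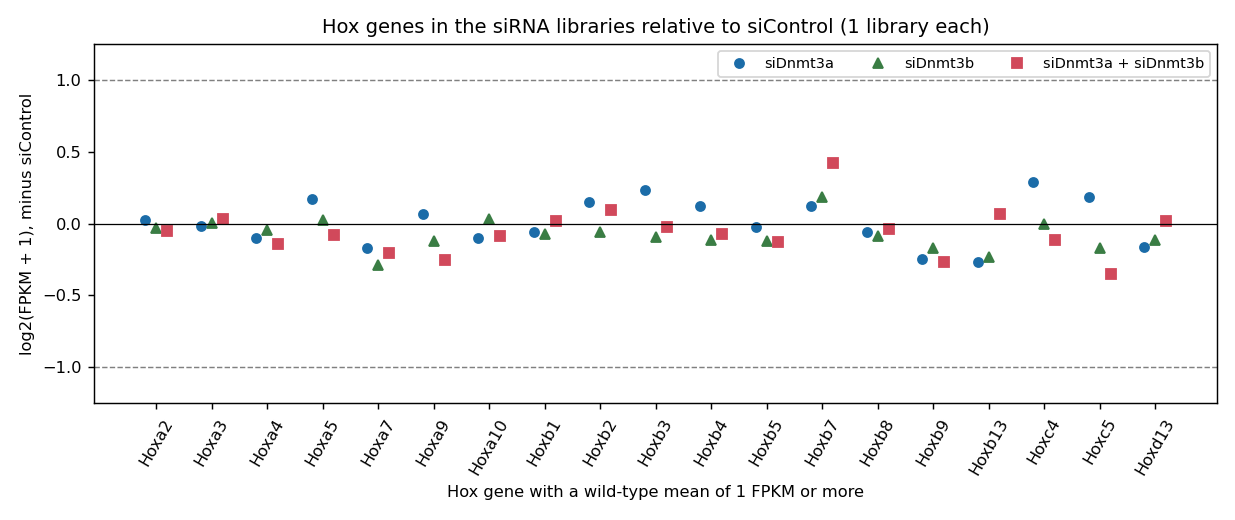
Difference of log2(FPKM + 1) from siControl for 19 of the 20 Hox genes with a wild-type mean of 1 FPKM or more, in the siDnmt3a (circles), siDnmt3b (triangles) and double siRNA (squares) libraries. Dashed lines mark 2-fold, and all points lie between -0.35 and 0.42.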

How the data were processed

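Polyadenylated RNA was sequenced as strand-specific libraries, per the labels' protocols. The deposited values are FPKM from Cuffnorm for 23284 gene symbols. Cufflinks 2.2.1, TopHat2 2.0.10 with Bowtie 1.0.0, SAMtools 0.1.19 and FastQC are listed in the submitters' processing notes, as are the builds GRCm38 and mm10. No annotation release or strand setting is given in the sources used here. Since FPKM divide each library into shares, a few abundant genes can lower the rest. Relative depth, read from steps of low genes, was 92.4% to 99.9% of siControl, a rough estimate since 12.8% to 17.8% of those genes lay at the most common ratio.

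Groups came from the labels. The dox comparison used limma (version 3.58.1, R 4.3.3; lmFit, eBayes with a trend) on log2(FPKM + 1), two-sided, for 11927 genes averaging at least 1 FPKM, with Benjamini-Hochberg adjustment over all of them and a threshold of 0.05. Differences on this scale understate changes of low genes. The code was tested on simulated data. Single libraries were compared without a test, counting 2-fold differences. Vehicle against the 4 wild-type libraries was fitted with limma as an addition after the data were seen. Clone numbers, equal in the titles, were taken to pair dox with vehicle libraries only in the fit with a clone block. The main dox fit was unpaired. The differences between clones in dox and in vehicle correlated at r = 0.441 across 11927 genes, which are not independent.

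Members and gene lists were chosen with earlier results of these data known. Named members reached a mean of 1 FPKM in the knock-in or wild-type libraries, or 1 FPKM in any library, and other members named were chosen after their values were seen. Up to 5 genes of each list could be named, those with the largest dox difference past the threshold, and further list genes, those for the comparison of lines included, were named after their values were seen. Alternatives were pseudocounts of 0.1 and 0.5, minimum means of 0, 0.1 and 5 FPKM, no trend, a clone block, upper-quartile scaling, median centring and leaving out each library. Sequences are from RefSeq tables (GRCm38.p6), and UTRs from GENCODE. Analyses used Python 3.11.15. Values of 1 member and 1 cofactor are not reported here and are left out of the figures by gene, but they count in the totals.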

Additional observations from a re-analysis of the deposited data

How the results depend on the processing

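No tested Hox gene changed direction under any alternative run. For dox against vehicle, 12 of 38 members were called higher with no minimum level and 13 of 36 at a minimum of 0.1 FPKM, against 5 of 8 in the report, since more members were tested. At a minimum of 5 FPKM no member was left to test. Leaving out 1 library gave 4 to 6 higher, and 0 were lower in every setting. The clone number as a replicate block gave 7 higher and added Hoxb7 and Hoxd13, without a count over all genes. Hoxc13 lost its call with no minimum level (adjusted p = 0.092) and without dox clone 2 or either vehicle clone. For single tested members in that comparison, 87 alternative values stayed on the same side of the threshold, 5 newly passed and 4 no longer passed. For vehicle against the 4 wild-type libraries, 6 members were higher both with no minimum and at 0.1 FPKM, and 21 lower. In both comparisons, some members reached 0.1 FPKM only through the group where they were higher. At 5 FPKM, 2 members were tested, 2 were lower and 0 higher. Leaving out 1 library gave 16 or 17 lower and 1 higher. Hoxb9 passed as lower with median centring (-0.28, adjusted p = 0.0373). Against siControl, 15 or 16 members were 2-fold lower and 0 higher, and leaving out a vehicle library gave 15. In the siRNA libraries, which have no replicate, 0 Hox genes were counted at 2-fold in any setting run. In all these 2-fold counts, settings with no or a lower minimum keep a pseudocount of 1, on which members near 0 FPKM cannot reach 2-fold. Settings with a lower pseudocount keep the minimum of 1 FPKM. Members low in both lines, such as Hoxd8 and Hoxc12, could thus not be counted as 2-fold higher in vehicle libraries than in siControl. Unknown depth and few fragments limit members under 1 FPKM.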
